A study of Mus musculus with 12 samples.

Results

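The CXC chemokines examined were Cxcl1, Cxcl2, Cxcl3, Cxcl5, Cxcl9, Cxcl10, Cxcl11, Cxcl14, and Cxcl16, which are 9 of the 43626 genes counted in mouse bone marrow–derived macrophages (BMDMs). They were chosen by name, in order to set the neutrophil-attracting Cxcl1, Cxcl2, Cxcl3, and Cxcl5 against the interferon-driven Cxcl9, Cxcl10, and Cxcl11. Enough reads for a test were found for 8 of the 9, and for 14308 genes in all, the exception being Cxcl5. Their mRNA was measured by RNA-Seq of polyadenylated RNA in 12 libraries, with 3 libraries in each of 4 conditions.

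LPS comes from the cell wall of gram-negative bacteria and is sensed by TLR4, and 3′SL (3′-sialyllactose) is a human milk oligosaccharide. The conditions were PBS, which stood for neither agent, and 3′SL, LPS, or both agents together. 3′SL was given at 100 μg/mL, and LPS at 10 ng/mL, each for 6 hours. The labels call 3′SL HMO and describe injected mice, so doses and hours came from the methods of the study. The strain, sex, and age of the marrow donors were not given in the sources used here. BMDMs are grown in culture, without the tissue and circulation through which these chemokines act. The labels do not say whether libraries of 1 condition came from separate cultures or animals, and the p-values below measure only the spread between these libraries.

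Chemokines are small secreted proteins that guide leukocytes through G protein–coupled receptors, and the CXC family is named after the spacing of its first cysteines. Cxcl1, Cxcl2, Cxcl3, and Cxcl5 carry a glutamate-leucine-arginine motif, bind CXCR2, and draw neutrophils. Cxcl9, Cxcl10, and Cxcl11 lack that motif, bind CXCR3 on activated T cells and NK cells, and are typical products of cells exposed to interferons. In macrophages, TLR4 signals through MyD88 to NF-κB and through TRIF to IRF3 and IFN-β, and both arms reach chemokine genes.

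The members lie in few places of the genome. In the GRCm38 coordinates of GENCODE M21, Cxcl5, Cxcl3, Cxcl1, and Cxcl2 span 146579 bases of chromosome 5, all on the plus strand. A gap of 1415408 bases separates them from Cxcl9, Cxcl10, and Cxcl11, which span 44139 bases of the minus strand. Cxcl14 is on chromosome 13 (56288643 to 56296551) and Cxcl16 on chromosome 11 (70453983 to 70459984), both on the minus strand. Cxcl11 is annotated as a polymorphic pseudogene and the other 8 as protein coding. Of the transcript words of 50 bases, 5.84% of those of Cxcl2 and 4.24% of those of Cxcl3 also occur in other genes, mainly in each other, so that their reads can be confused to this extent. Exons of Cxcl10, Cxcl11, and Cxcl16 overlap those of Art3, Gm2673, and Zmynd15 on the other strand, and whether the counting used the strand is not given in the sources used here.

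The bases just before the start sites of Cxcl1, Cxcl2, and Cxcl3 are shown because these 3 genes were the members with lower levels in every LPS + 3′SL library than in any LPS library. Each line is the 100 bases that end before the earliest annotated start, 5′ to 3′ on the gene's own strand (RefSeq, GRCm38.p6). Capitals mark letters matching the κB consensus, the binding sequence of NF-κB, on either strand. The windows are chr5:90891141-90891240, chr5:90903771-90903870, and chr5:90786001-90786100, all on the plus strand.
Cxcl1: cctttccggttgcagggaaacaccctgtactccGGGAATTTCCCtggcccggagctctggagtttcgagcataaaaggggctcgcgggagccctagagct
Cxcl2: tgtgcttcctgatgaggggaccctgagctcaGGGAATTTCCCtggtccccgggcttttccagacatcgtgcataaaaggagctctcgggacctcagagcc
Cxcl3: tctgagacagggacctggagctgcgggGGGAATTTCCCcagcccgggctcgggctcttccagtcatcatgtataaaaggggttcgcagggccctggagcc

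All 3 hold the same 11 letters GGGAATTTCCC, the longest run that their 250-base upstream windows share. Counted back from the RefSeq start, GGGAATTTCC lies at bases 71 to 62 in Cxcl1, 97 to 88 in Cxcl2, and 73 to 64 in Cxcl3. These letters, which were searched on both strands after the windows had been seen, occur in 28 of 32851 promoters (0.0852%), and any match to the κB consensus occurs in 7.25%.

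The promoter of Cxcl10, the most abundant member after LPS, is shown for comparison as the 250 bases chr5:92348890-92349139 on the minus strand. Capitals again mark κB consensus matches and, near the 5′ end, a match to the interferon-stimulated response element (ISRE) searched as GAAA, any 2 bases, and GAAA again on either strand, which does not overlap them.
Cxcl10: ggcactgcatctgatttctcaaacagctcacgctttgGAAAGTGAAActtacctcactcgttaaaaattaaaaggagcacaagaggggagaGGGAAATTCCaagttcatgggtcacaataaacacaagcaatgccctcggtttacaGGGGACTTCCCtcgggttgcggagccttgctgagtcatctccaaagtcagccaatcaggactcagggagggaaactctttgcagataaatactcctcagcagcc

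Cxcl10 had κB matches at bases 159 to 150 and 104 to 94 before its start and the ISRE match at bases 213 to 204, and the ISRE letters were found in 2.98% of all promoters. Neither motif was found in the upstream window of Cxcl9, and that of Cxcl14 held only ISRE letters, at bases 172 to 163. RefSeq promoters were matched for 6 of the 9 members, and Cxcl5, Cxcl11, and Cxcl16 were not among them. A match is a description of letters and not of binding.

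Between 20411741 and 26851890 reads per library were counted on genes (median 23375851). Clustering of what remained after subtracting the mean of each condition split the libraries into 3 sets of 4, and every set held 1 library per condition. These residuals correlated at 0.521 to 0.808 between libraries of a set, over the genes tested. Subtracting the means by itself pushes libraries of 1 condition apart, so that 1 library per condition in every set is in part given by this step. The labels name no batch, and the sets were found in the data. Each set was also a run of 4 libraries in the order of deposit, with set 1 first and set 3 last. All 8 macrophage markers were tested and summed to 17639.8 to 30044 CPM. Neutrophil markers summed to 112 to 173 CPM in set 1, 211 to 354 in set 2, and 243 to 786 in set 3, with 8 of 8 tested. Stromal markers summed to 642 to 749 CPM in set 1, 28.0 to 49.4 in set 2, and 70.1 to 118 in set 3, while lymphocyte markers reached at most 0.482 CPM and Cd3e had no read. Platelet markers reached at most 1.99 CPM with 2 of 4 tested. Markers also moved with LPS. Of the 8 macrophage markers, edgeR called 5 higher with LPS (18.3% of all genes were), and 0 of the neutrophil and stromal markers were called. With the library sets as a block in edgeR, 4 macrophage, 4 neutrophil, and 4 stromal markers were called higher and 1 neutrophil marker lower. In that fit 6378 of 14308 genes were called in either direction. Endothelial markers (2 of 4 tested) summed to 6.09 to 10.6 CPM with PBS and 16.9 to 25.8 with LPS, and both Cdh5 and Kdr rose. Dendritic cell markers (3 of 5 tested) summed to 0.947 to 1.69 CPM with PBS and 5.52 to 15.0 with LPS, and Xcr1 rose. No marker of these lists was called for LPS + 3′SL against LPS, where edgeR called 0.0% of all genes, so this does not set the markers apart. The part of other cells in the chemokine levels was not tested, and in such bulk libraries fewer cells of a type and less RNA per cell cannot be told apart. Levels below are CPM (counts per 1e6 reads of the TMM-scaled library size), given in the order of sets 1, 2, and 3.

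With LPS alone, all 8 members tested changed at least 1.5-fold at a Benjamini-Hochberg adjusted p under 0.05 in edgeR's quasi-likelihood test. Of these, 7 rose (18.3% of all genes tested did) and Cxcl14 fell (20.2% did), and 38.5% of all genes passed in either direction. The PBS and LPS libraries did not overlap for any of the 8, as for 58.4% of all genes. The interferon-driven genes had log2 fold changes of 7.86 to 9.50, the neutrophil-attracting genes 5.07 to 7.59, and Cxcl16 2.75, beside a median of −0.06 over all genes.

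Cxcl1, also called KC, is a neutrophil attractant made early by many stimulated cells. Its levels were 0.603, 0.246, and 0.506 CPM with PBS and 18.8, 15.5, and 12.0 CPM with LPS. Every LPS library was above every PBS library, and the log2 fold change was 5.07 ± 0.54 (SE, n = 3 each, edgeR's adjusted p = 2.6e-05). Cxcl2, or MIP-2, stood at 1.61, 2.10, and 12.7 CPM with PBS and at 254, 295, and 236 CPM with LPS. Its PBS library of set 3 was far above the other two, and the log2 fold change was 5.58 ± 1.16 (edgeR's adjusted p = 0.0024). For Cxcl3, the third gene of this group, levels of 0.402, 0.175, and 0.675 CPM with PBS and 74.4, 77.9, and 92.3 CPM with LPS were found. The groups were far apart, and Cxcl3 rose by 7.59 ± 1.04 on the log2 scale (edgeR's adjusted p = 1.6e-04).

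Cxcl5, which epithelial cells make in quantity, was close to absent. It had 0, 1, and 6 reads with PBS, 5, 0, and 10 with 3′SL, 14, 0, and 3 with LPS, and 1 in each library with LPS + 3′SL, where a count of 0 allows up to 3 reads. No condition stood apart, no difference was detectable at this depth, and Cxcl5 was left out of the test.

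Cxcl10, or IP-10, became by far the most abundant member. It stood at 5.05, 6.17, and 19.3 CPM with PBS and at 3973, 4774, and 5702 CPM with LPS, which is 8.89 ± 0.85 on the log2 scale (edgeR's adjusted p = 1.4e-05). Cxcl9, or MIG, is best known as a target of IFN-γ. Its levels were 0.144, 0.386, and 0.607 CPM with PBS and 57.6, 70.9, and 134 CPM with LPS, and it rose by 7.86 ± 0.71 on the log2 scale (edgeR's adjusted p = 1.0e-05). Cxcl11, or I-TAC, had 0, 0.140, and 0.135 CPM with PBS and 38.4, 42.0, and 119 CPM with LPS. Its log2 fold change of 9.50 ± 0.93 (95% interval 7.45 to 11.55, edgeR's adjusted p = 1.6e-05) rests on 8 reads in the PBS libraries together. For all 3 interferon-driven genes the LPS library of set 3 was the highest.

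Cxcl16 is made as a membrane-bound protein that also takes up oxidized lipoprotein and is shed by ADAM10 and ADAM17. Its levels were 50.6, 55.6, and 154 CPM with PBS and 455, 516, and 779 CPM with LPS (log2 fold change 2.75 ± 0.53, edgeR's adjusted p = 0.0015). Cxcl14, a chemokine that many resting tissues express, was the single member to fall. It stood at 62.9, 61.1, and 208 CPM with PBS and at 18.3, 16.0, and 20.7 CPM with LPS (log2 fold change −2.60 ± 0.52, edgeR's adjusted p = 0.0019). The LPS libraries of Cxcl14 lay close together, whereas its PBS library of set 3 was well above the rest.

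All 8 calls held in edgeR when any 1 library or set was left out and with each scaling tried, and DESeq2 called 7 (39.6% of all genes), giving no p for Cxcl2, which it marked for an extreme count. Without the PBS library of set 3, the log2 fold change was 7.14 for Cxcl2, 9.74 for Cxcl10, 3.46 for Cxcl16, and −1.76 for Cxcl14, and without the LPS library of set 3 it was 8.77 for Cxcl11. Scaling by total counts moved the median of all genes to −0.71 and gave 4.97 for Cxcl2, 8.24 for Cxcl10, and −3.23 for Cxcl14.

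**Figure D1:**
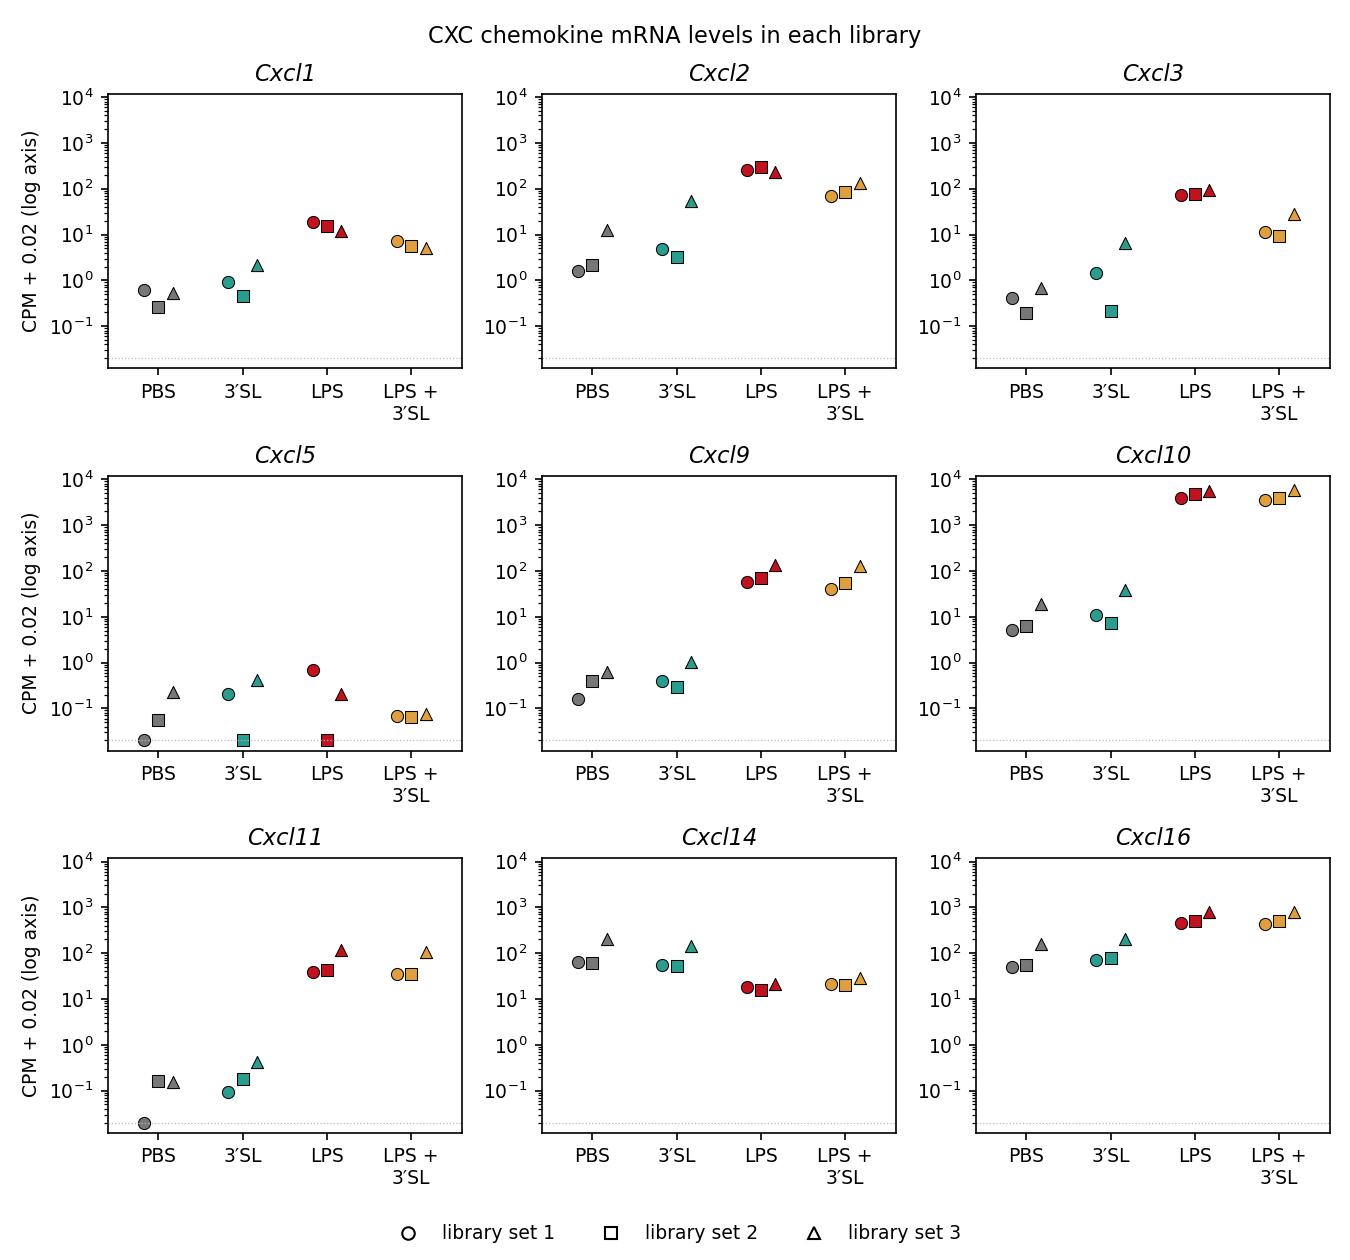
Levels of the 9 CXC chemokines in each library, as CPM plus a small offset on a log axis, by condition, with 1 point per library and its shape marking the library set (dotted line, 0 reads). The points with LPS + 3′SL lie below those with LPS for Cxcl1, Cxcl2, and Cxcl3 and overlap them for Cxcl9, Cxcl10, Cxcl11, and Cxcl16.

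Levels of different genes were compared as CPM per kilobase of the principal transcript. With PBS, the order began with Cxcl14 (60.7 ± 46.3, SD, n = 3) and Cxcl16 (32.2 ± 21.7), followed by Cxcl10 (9.29 ± 7.22) and Cxcl2 (4.93 ± 5.64), with each of the other 5 below 1. The ranges of these neighbours over the libraries overlapped, except those of Cxcl16 and Cxcl10 (18.7 to 57.2 and 4.62 to 17.6). With LPS, Cxcl10 came first (4402 ± 791) and Cxcl2 (236 ± 27.3) and Cxcl16 (216 ± 63.8) followed with overlapping ranges. Below them stood Cxcl3 (80.3 ± 9.36), Cxcl11 (42.1 ± 28.9), Cxcl9 (30.3 ± 14.1), Cxcl1 (16.2 ± 3.61), and Cxcl14 (10.0 ± 1.27), of which Cxcl3 and Cxcl11 overlapped, as did Cxcl11 and Cxcl9. When both agents were given, Cxcl10 (4068 ± 1226) and Cxcl16 (215 ± 74.8) came before Cxcl2 (85.8 ± 30.2), and Cxcl3 (15.8 ± 9.82) came after Cxcl11 (37.6 ± 26.6) and Cxcl9 (25.7 ± 16.3), while overlapping both. Cxcl2 thus overlapped Cxcl16 with LPS but lay wholly below it with LPS + 3′SL (61.5 to 120 against 161 to 300.2). Inside single libraries, Cxcl3 stood above both Cxcl11 and Cxcl9 in each LPS library and below both in each LPS + 3′SL library.

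Per length, Cxcl14 made up 55.8% ± 1.78 (SD, n = 3) and Cxcl16 30.8% ± 2.38 of the summed mRNA of the 9 genes with PBS. Cxcl10 made up 87.4% ± 0.42 with LPS and 91.2% ± 0.71 once 3′SL was added. The 4 neutrophil-attracting genes together held 4.73% ± 1.38 with PBS, 12.5% ± 9.51 with 3′SL, 6.75% ± 1.27 with LPS, and 2.39% ± 0.11 with both agents. The LPS libraries (5.31% to 7.71%) and those with LPS + 3′SL (2.30% to 2.52%) did not overlap in this share.

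**Figure D2:**
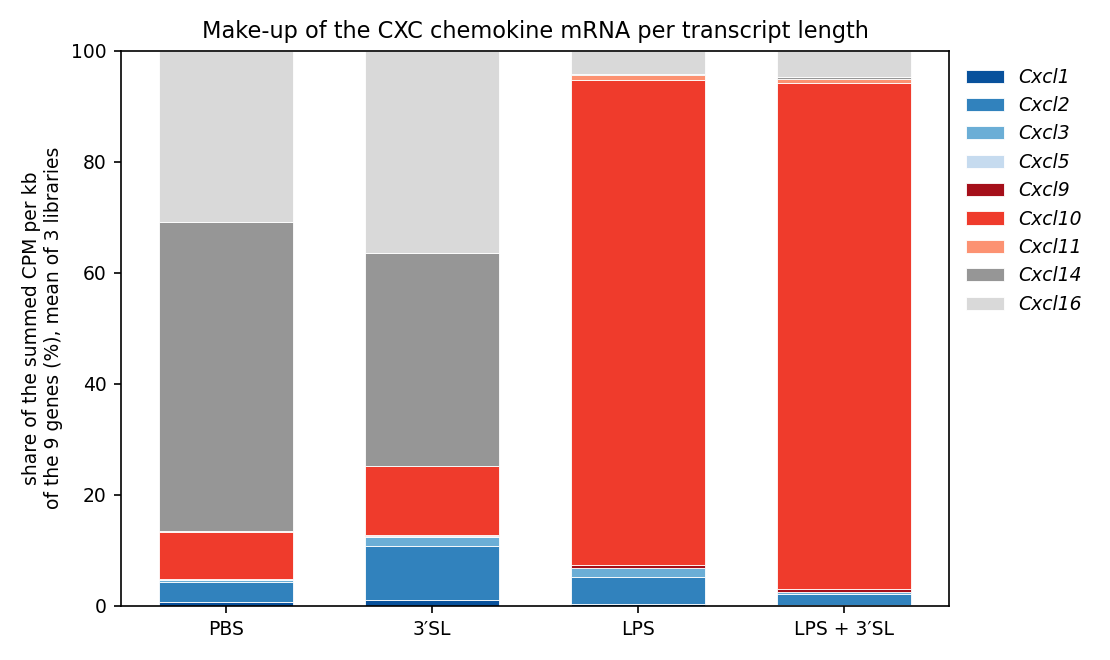
Share of each CXC chemokine in their summed CPM per kilobase of transcript (%), as stacked bars of the mean of 3 libraries per condition, with neutrophil-attracting genes in blue, interferon-driven genes in red, and Cxcl14 and Cxcl16 in grey. Cxcl14 and Cxcl16 fill most of the bar with PBS, Cxcl10 fills 87.4% of it with LPS and 91.2% with LPS + 3′SL.

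When 3′SL was added to LPS, Cxcl1, Cxcl2, and Cxcl3 were lower in every library than in any LPS library, but none of the 8 members tested passed the thresholds. The interferon-driven genes and Cxcl16 overlapped between the conditions. In edgeR, 0.0% of all genes passed, with an unadjusted p under 0.05 for 995 genes and for 2 members, Cxcl1 and Cxcl3. In DESeq2 0 members and 113 genes (0.79%) were called, and Cxcl2 had no p there.

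Cxcl3 differed most among the members. It was at 11.2, 9.52, and 27.6 CPM with LPS + 3′SL against the 74.4 to 92.3 CPM with LPS, which is 15.0%, 12.2%, and 29.8% of the LPS level in sets 1, 2, and 3. The log2 fold change was −2.34 ± 0.78 (edgeR's adjusted p = 0.46). Cxcl1 was at 7.04, 5.52, and 5.15 CPM, or 37.3%, 35.6%, and 43.0% of the LPS level of its set, a log2 difference of −1.39 ± 0.45 (edgeR's adjusted p = 0.43). Cxcl2 was at 68.2, 84.5, and 133 CPM, or 26.9%, 28.7%, and 56.3% of the LPS level, a log2 difference of −1.46 ± 0.96 (edgeR's adjusted p = 0.93). Set 3 kept the largest share of the LPS level for each of these genes.

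These 3 genes were the members whose libraries were lower without overlap, which 6.5% of all genes were, and 12.7% of genes did not overlap in either direction. A two-sided exact permutation test gave p = 0.1 for each, the smallest value that 3 libraries against 3 can give. With the library sets as a block in the edgeR model, 1.45% of all genes were called, 0.762% of all genes as lower, and Cxcl3 was the 1 member among them (log2 fold change −2.58 ± 0.41, adjusted p = 0.0086). Cxcl1 had an adjusted p of 0.054 and Cxcl2 of 0.19 in that edgeR fit. Without set 3, Cxcl2 (−1.84, edgeR's adjusted p = 0.013) and Cxcl3 (−2.87, adjusted p = 0.043) passed in the fit without a block, where 1.04% of all genes did. Without set 1 or set 2, none passed.

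Cxcl9 was at 40.7, 53.7, and 128 CPM with LPS + 3′SL, which is 70.7%, 75.8%, and 95.7% of the LPS level in sets 1, 2, and 3. Its log2 fold change was −0.24 ± 0.49, and −0.32 ± 0.12 with the sets as a block (edgeR's adjusted p = 1 and 0.21). Cxcl10 was at 3488, 3879.8, and 5982 CPM, or 87.8%, 81.3%, and 105% of the LPS level (log2 fold change −0.11 ± 0.60, 95% interval −1.45 to 1.22). Cxcl11 was at 35.4, 34.8, and 108 CPM, or 92.1%, 82.7%, and 90.5% (−0.16 ± 0.56, 95% interval −1.40 to 1.07). These intervals include changes as large as that of Cxcl1, and with the sets as a block they ran from −0.82 to 0.48 for Cxcl10 and from −0.47 to 0.12 for Cxcl11. The direction of these small differences turned when single libraries were left out. It stayed negative when the whole of set 1, 2, or 3 was left out. In that order the values were −0.17, −0.18, and −0.44 for Cxcl9 and −0.087, −0.031, and −0.24 for Cxcl10. For Cxcl11 they were −0.18, −0.14, and −0.19.

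Cxcl16 was at 436, 493, and 810.3 CPM with LPS + 3′SL (log2 fold change −0.01 ± 0.50), and its direction turned with the scaling. Cxcl14 was at 21.6, 20.5, and 28.6 CPM, which is 118%, 128%, and 138% of the LPS level in sets 1, 2, and 3, and the ranges of the conditions overlapped (0.36 ± 0.50, edgeR's adjusted p = 1). Lower values in every set were found for 5 of the 8 members (Cxcl1, Cxcl2, Cxcl3, Cxcl9, and Cxcl11) and for 25.7% of all genes. A higher value in every set was found for Cxcl14 and for 21.3% of all genes.

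The contrast of the 2 groups was also read within libraries, as the log2 ratio of each of Cxcl1, Cxcl2, and Cxcl3 to each of Cxcl9, Cxcl10, and Cxcl11, a comparison chosen after the levels had been seen. The means of all 9 ratios were lower after 3′SL was added to LPS, by 1.05 (Cxcl1 to Cxcl9) to 2.36 (Cxcl3 to Cxcl10) on the log2 scale. The libraries did not overlap for 6 of the 9, for which the two-sided exact permutation p was 0.1. That is the smallest value possible here, and it became 0.15 when this permutation test was adjusted over the 9 pairs. Cxcl1, Cxcl2, and Cxcl3 were already known to be lower without overlap, so lower ratios were largely given beforehand. The 9 ratios also share genes and are not separate observations, and no share over other gene pairs was computed. For Cxcl3 to Cxcl10, the mean log2 ratio with LPS was −5.87 ± 0.12 (SD, n = 3), and adding 3′SL gave −8.24 ± 0.46. For Cxcl1 to Cxcl10 it was −8.29 ± 0.59 and −9.53 ± 0.62. Each ratio was lower in all 3 sets.

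**Figure D3:**
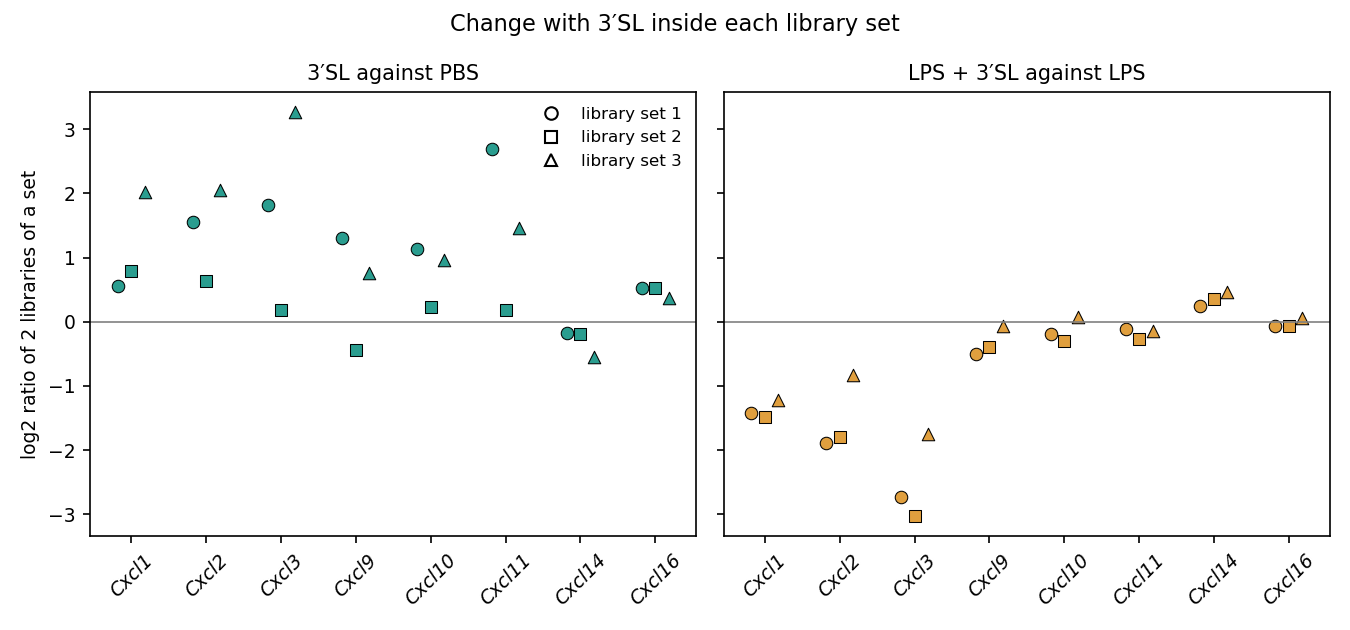
Change of the 8 CXC chemokines tested with 3′SL inside each library set, as the log2 ratio of 2 libraries of the set, without LPS (left) and with LPS (right), each point being 1 set. Cxcl1, Cxcl2, and Cxcl3 lie above 0 without LPS and below 0 with LPS in all 3 sets. With LPS, Cxcl9 and Cxcl11 also lie below 0 in all 3 sets, but less far, and Cxcl10 lies on both sides of it. Without LPS, Cxcl3 had 5 reads in each of the 2 libraries of set 2.

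With 3′SL alone, no member passed the thresholds, and 0.0% of all genes did in edgeR. An unadjusted p under 0.05 was found for 1439 genes and 2 members, and DESeq2 called 88 genes (0.615%) and 0 members, again with no p for Cxcl2. The values of Cxcl1, Cxcl2, and Cxcl3 were above those with PBS in each set, while Cxcl5 had too few reads to compare. In set 2, Cxcl1 had 11 reads with 3′SL and 7 with PBS. Cxcl3 had 5 reads in each and differed there only through the library size. Cxcl1 was at 0.893, 0.438, and 2.11 CPM with 3′SL, and its log2 difference was 1.32 ± 0.51 (edgeR's adjusted p = 0.45). Cxcl2 was at 4.76, 3.26, and 52.8 CPM (1.89 ± 1.01, edgeR's adjusted p = 0.58), and Cxcl3 at 1.45, 0.199, and 6.64 CPM (2.70 ± 0.96, edgeR's adjusted p = 0.42). The 3′SL library of set 3 was the highest unstimulated library for all 3 genes, and the groups overlapped.

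The interferon-driven genes showed the same library at the top. Cxcl9 was at 0.372, 0.278, and 1.03 CPM with 3′SL, Cxcl10 at 11.2, 7.24, and 37.7, and Cxcl11 at 0.0744, 0.159, and 0.398, with log2 fold changes of 0.59 ± 0.81, 0.88 ± 0.62, and 1.21 ± 1.34 (edgeR's adjusted p from 0.68 to 0.87). Cxcl16 was at 72.5, 80.1, and 199 CPM (0.43 ± 0.50), and Cxcl14 at 55.6, 53.5, and 142 CPM (−0.40 ± 0.49). Within sets, 6 of the 8 members were higher with 3′SL in every set, against 25.8% of all genes, and Cxcl14 was lower in every set, against 25.5%. Cxcl3 and Cxcl11 belong to these 6 only through the library size in set 2, where their reads were equal (5 and 5, 4 and 4). Cxcl11 was near the floor throughout, at 2, 4, and 10 reads with 3′SL and 0, 4, and 4 with PBS. None of the members was without overlap, against 17.5% of all genes. With the sets as a block 2.84% of all genes and 0 members were called, the lowest adjusted p of a member being 0.058 for Cxcl3. Without the 3′SL library of set 3, the log2 fold change was −0.49 for Cxcl2, −0.21 for Cxcl9, −0.18 for Cxcl10, and −0.23 for Cxcl16, and without the PBS library of that set it was 3.45, 1.11, 1.74, and 1.14. With the whole of set 3 left out, it was 1.10, 0.33, 0.70, and 0.51 for the same genes.

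In macrophages given 3′SL, the response to LPS was again called for 7 of the 8 members, against 29.2% of all genes, and 6 of them rose (14.3% of all genes did) while Cxcl14 fell (14.8% did). This comparison has the same libraries as those above and adds no further samples. Cxcl10 rose by 7.89 ± 0.82, Cxcl11 by 8.12 ± 0.86, and Cxcl9 by 7.04 ± 0.69 on the log2 scale (edgeR's adjusted p from 2.6e-05 to 4.2e-05). Cxcl1 rose by 2.36 ± 0.48 (edgeR's adjusted p = 0.0028) and Cxcl3 by 2.54 ± 0.82 (adjusted p = 0.032), while Cxcl2 was at 2.23 ± 0.99 (adjusted p = 0.11). Cxcl16 rose by 2.30 ± 0.52 and Cxcl14 fell by 1.83 ± 0.51 (edgeR's adjusted p = 0.0054 and 0.016). Set beside the values without 3′SL, the LPS response of Cxcl1 was 5.07 and 2.36, that of Cxcl2 5.58 and 2.23, and that of Cxcl3 7.59 and 2.54, whereas that of Cxcl10 was 8.89 and 7.89.

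The 3′SL library of set 3 weighed on this comparison. Without it, the log2 fold changes were 3.16 for Cxcl1, 4.58 for Cxcl2, which then passed (edgeR's adjusted p = 0.0023), 4.27 for Cxcl3, 7.81 for Cxcl9, 8.93 for Cxcl10, 8.95 for Cxcl11, 2.94 for Cxcl16, and −1.19 for Cxcl14, which then missed the threshold (adjusted p = 0.070). Without the LPS + 3′SL library of set 3, Cxcl3 was at 1.91 (edgeR's adjusted p = 0.12), Cxcl9 at 6.39, and Cxcl11 at 7.36. Cxcl3 also missed the threshold without the 3′SL library of set 1 (adjusted p = 0.10), as did Cxcl14 without the LPS + 3′SL library of set 1 (0.051) or of set 2 (0.057). Without set 1, 4 of the 8 members were called, against 20.6% of all genes, and without set 2 also 4, against 15.1%. When only the 2 conditions compared were fitted, Cxcl3 missed the threshold (2.54, edgeR's adjusted p = 0.11). With the sets as a block, all 8 members were called, against 35.8% of all genes.

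**Figure D4:**
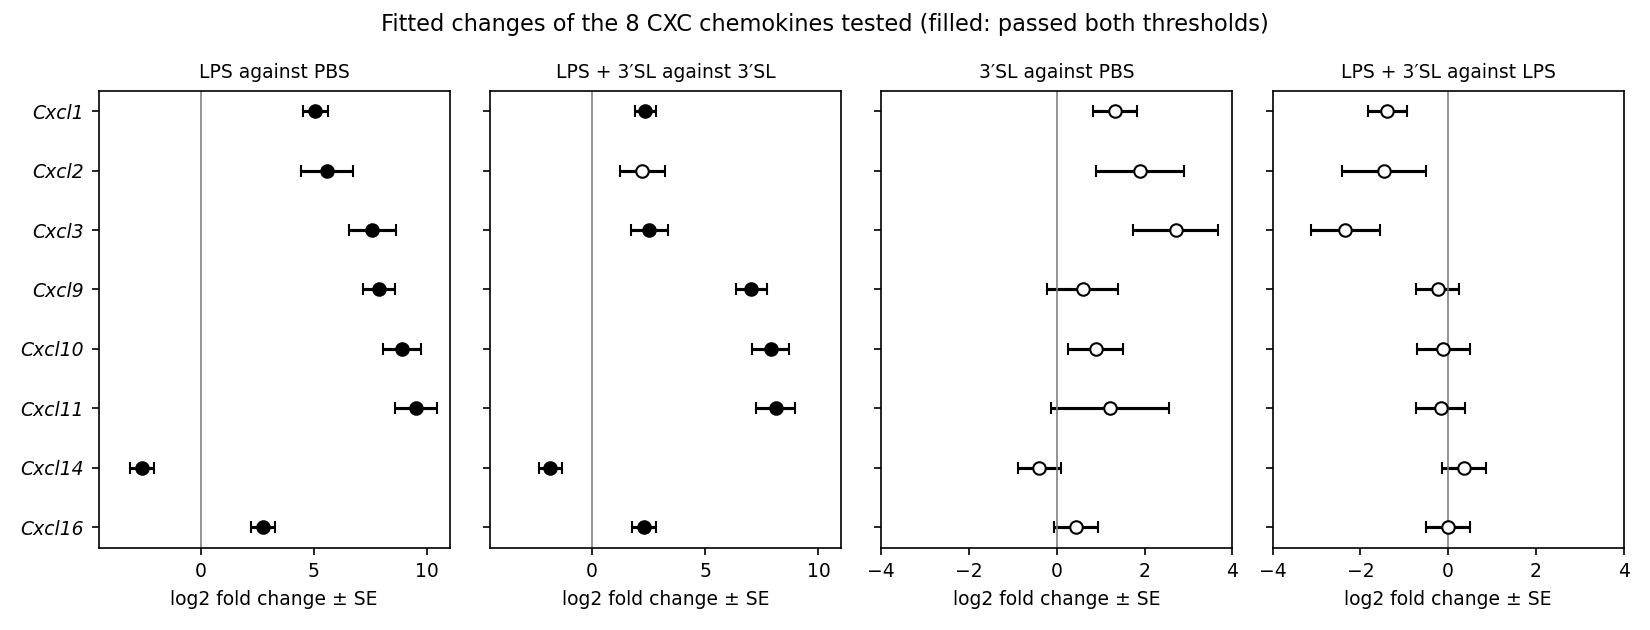
Log2 fold changes (points) with their SE (bars) of the 8 CXC chemokines tested in 4 comparisons from edgeR's fit over 12 libraries, filled where both thresholds were passed. The response of Cxcl1, Cxcl2, and Cxcl3 to LPS was 5.07 to 7.59 without 3′SL and 2.23 to 2.54 with it.

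The interaction asks whether the effect of 3′SL beside LPS differed from its effect without LPS. On the log2 scale it was −5.05 ± 1.23 for Cxcl3, −3.35 ± 1.39 for Cxcl2, and −2.71 ± 0.67 for Cxcl1, and lay between −1.38 and −0.83 for Cxcl9, Cxcl10, and Cxcl11. None passed in edgeR (adjusted p = 0.58, 0.79, and 0.58 for the first 3), as 0.0% of all genes did, with 872 genes and 3 members at an unadjusted p under 0.05. With the sets as a block, 1.55% of all genes were called, 1.29% of all genes as lower, and Cxcl3 (−5.09 ± 0.78, edgeR's adjusted p = 0.014) and Cxcl1 (−2.70 ± 0.59, adjusted p = 0.045) were among them. Cxcl2 was at −3.36 ± 0.90 in that fit (edgeR's adjusted p = 0.087). In the fit without a block, Cxcl2 passed without set 3 (−2.94, edgeR's adjusted p = 0.019) but not without set 1 or set 2. The share of all genes called without set 3 is not given here. DESeq2 called 0.308% of genes and, of the members, Cxcl1 (adjusted p = 0.028) but not Cxcl3 (0.061), and again gave no p for Cxcl2. The estimates of Cxcl1, Cxcl2, and Cxcl3 were negative in all 3 sets and without any single library. Without the 3′SL library of set 3 they were −1.90, −0.98, and −3.30.

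Genes whose pattern over the 12 libraries was most like that of a member were ranked by the root mean square difference of centred log2(CPM + 0.5), among 12174 protein-coding genes tested. Cxcl3 was nearest to Ptgs2 (difference 0.57), which encodes cyclooxygenase 2, then to Cxcl2 (0.69) and H2-M2 (0.69). For Cxcl2 the nearest were Olr1 (0.57), a receptor for oxidized LDL, Tnf (0.67), and Cxcl3 (0.69), and for Cxcl1 they were Gpd2 (0.43), Dcbld2 (0.44), and Ralgds (0.44). Cxcl10 was nearest to the guanylate-binding protein gene Gbp2b (0.28), Acod1 (0.33), and Cd69 (0.47). Cxcl9 lay nearest to Trim30c (0.28), Cd40 (0.29), and Cd274 (0.36), and Cxcl11 to Cxcl9 (0.23), Trim30c (0.38), and Gbp4 (0.38). The nearest genes to Cxcl5 (2510009E07Rik, Adnp, and Blzf1, 0.25 to 0.27) are genes that varied little, since Cxcl5 stayed at or below 0.684 CPM. None of the genes named beside an interferon-driven member was named beside Cxcl1, Cxcl2, or Cxcl3.

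Other genes of the pathway were taken from lists chosen by function. Among 6 further CXC ligands, 3 were tested and none was called in any comparison. In edgeR, 0 had an unadjusted p under 0.05 for LPS against PBS and 1 for the interaction of LPS and 3′SL. Ppbp was at 7.07 ± 0.73 CPM with PBS and 7.83 ± 2.19 with LPS (SD, n = 3). It was at 5.04 ± 0.73 CPM with LPS + 3′SL. Its libraries with LPS + 3′SL (4.42 to 5.84 CPM) lay below those with LPS (6.39 to 10.4) without overlap, as for 6.5% of all genes. Pf4, a platelet chemokine that macrophages also transcribe, was at 366 ± 59.7 CPM with PBS and 462 ± 55.0 with LPS (SD, n = 3). Cxcl12, a stromal ligand of CXCR4, reached 10.8 to 12.6 CPM in set 1, where stromal markers were highest, and 0.291 to 1.89 CPM in the other sets. Cxcl13, Cxcl15, and Cxcl17 had at most 3 reads in any library.

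Of 8 CXC receptor genes, 4 were tested, and Cxcr4 fell by 3.74 ± 0.49 on the log2 scale with LPS (41.2 ± 19.6 CPM with PBS, 3.10 ± 0.83 with LPS, edgeR's adjusted p = 1.2e-04). Cxcr3, the receptor of the interferon-driven ligands, fell as well, from 3.55 ± 1.41 to 1.35 ± 0.34 CPM (−1.39 ± 0.46, edgeR's adjusted p = 0.029). Cxcr2, the neutrophil receptor for the other group, was at 1.86 ± 1.41 CPM with PBS and 4.73 ± 4.58 with LPS (1.34 ± 0.86, adjusted p = 0.23). Ackr1 had no read. None of the 4 was called for 3′SL against PBS or for LPS + 3′SL against LPS, where edgeR called 0.0% of all genes. For LPS + 3′SL against 3′SL, Cxcr4 fell by 3.46 ± 0.48 and Cxcr5 rose by 1.70 ± 0.53 (edgeR's adjusted p = 2.7e-04 and 0.027). Of the proteases, Adam17 rose by 1.82 ± 0.15 with LPS (edgeR's adjusted p = 6.2e-06) and Adam10 fell by 0.65 ± 0.11 (adjusted p = 5.4e-04), and Dpp4, whose enzyme trims CXCR3 ligands, was not tested, with at most 10 reads in a library.

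The NF-κB genes and regulators of transcript decay rose together with LPS, 12 of 12 where 18.3% of all genes did, at a median log2 fold change of 3.21 against −0.06 over all genes. Nfkbiz, an atypical IκB, rose by 5.01 ± 0.31 and Zc3h12a, whose product Regnase-1 degrades cytokine transcripts, by 3.54 ± 0.35 (edgeR's adjusted p = 1.2e-06 and 1.7e-05). With LPS + 3′SL against LPS, 0 of 12 were called and 5 had an unadjusted p under 0.05, 11 being lower, at a median of −0.34. Of all 14308 genes, 0.0% were called in that edgeR fit and 995 had an unadjusted p under 0.05. Nfkbiz went from 346 ± 31.6 to 194 ± 34.4 CPM, Zc3h12a from 156 ± 35.1 to 93.1 ± 33.6, and Zfp36, whose product tristetraprolin destabilizes chemokine mRNA, from 744 ± 199 to 756 ± 243. With the sets as a block, 3 of the 12 were called lower (0.762% of all genes were), Nfkbiz, Tnfaip3, and Zc3h12a (−0.86, −0.90, and −0.78, edgeR's adjusted p = 0.0068, 0.010, and 0.0036).

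Of 14 genes of interferon signalling, 11 rose with LPS, Ifngr1 fell, and Irf3 and Irf8 were not called, at a median log2 fold change of 1.57, against 18.3% of all genes called higher and 20.2% lower. Irf7, which drives type I interferon genes, rose by 4.67 ± 0.85 on the log2 scale (edgeR's adjusted p = 0.0011). Ifnb1 had no read with PBS or 3′SL and 2.38 ± 0.37 CPM with LPS, and 2.44 ± 1.09 CPM when 3′SL was added, at least 73.8-fold and 62.8-fold higher than a floor of 3 reads over the 3 PBS or 3′SL libraries. With LPS + 3′SL against LPS, 0 of 14 were called with or without the sets as a block, 0 had an unadjusted p under 0.05 without it, and the median was −0.09. Of all genes, 0.0% were called without the block and 1.45% with it. DESeq2 called 0 of the 12 NF-κB and decay genes and 0 of these 14 in the same comparison (0.79% of all genes), and for 3′SL against PBS no gene of either list was called in edgeR, with or without the block, or in DESeq2. The shares of all genes called for 3′SL against PBS were 0.0% without the block, 2.84% with it, and 0.615% in DESeq2.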

How the data were processed

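The authors deposited 1 table per library of raw read counts per gene, not normalized, made from stranded libraries of polyadenylated RNA. The submitters' processing notes name FastQC, Trimmomatic, STAR, HTSeq, and DESeq2. Versions, genome build, annotation, and strand setting were not given in the sources used here. Reads on no gene (4.41% to 5.89% per library) were left out. Of 43626 gene IDs, 42462 matched GENCODE M21, which gave names and coordinates.

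Counts were scaled by TMM, filtered by filterByExpr, and tested with edgeR 4.0.16 in R 4.3.3, with 1 mean per condition over 12 libraries. Calls needed a difference of 1.5-fold or more and a Benjamini-Hochberg adjusted p under 0.05. Alternatives were DESeq2 1.42.0, other scalings, no filter, no fold minimum, only the conditions compared, leaving out libraries or sets, and library sets as a block. Total counts with that block were added after seeing the data. Replicate numbers follow accession order and match the library sets. Library pairs of 1 condition differed by 14.6 to 110 in chi-square per gene. Pairs with a library of set 3 were at 58.8 to 110 and the other pairs at 14.6 to 19.8. Each library was counted as a replicate because these values exceed counting error, which does not show that the libraries came from separate cultures or animals. Within-set ratios had 0.5 reads added. The script was tested on simulated data.

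The text names every member, the listed pathway genes described, and the 3 protein-coding genes most like each neutrophil-attracting or interferon-driven member. The members and lists were chosen with earlier results of these data known. Cxcl11, an annotated pseudogene, was not eligible as a like gene. Standard errors and 95% intervals come from the edgeR fit, and the floor of 3 reads covers counting error only.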

Additional observations from a re-analysis of the deposited data

Results flagged for a closer look

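The effect of 3′SL differed between macrophages with and without LPS for 2 members in edgeR's test of the interaction with the library sets as a block. It was −5.09 on the log2 scale for Cxcl3 (adjusted p = 0.014) and −2.70 for Cxcl1 (adjusted p = 0.045). Both genes had higher values with 3′SL than with PBS in all 3 sets and lower values with LPS + 3′SL than with LPS in all 3 sets. In set 2 without LPS, Cxcl3 had 5 reads with 3′SL and 5 with PBS, and Cxcl1 had 11 and 7. Without the block neither passed in edgeR (adjusted p = 0.58 each). The sets were defined from the data and also follow the order of deposit.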

How the results depend on the processing

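All 167 values for LPS against PBS kept their direction and call under the alternatives that gave a value. For LPS + 3′SL against LPS, 0 members were called, but 1 with the library sets as a block, 1 with that block and total counts (chosen after seeing the data), and 2 without set 3. For LPS + 3′SL against 3′SL, 7 were called, 4 without set 1, 4 without set 2, 6 with only the conditions compared (Cxcl3 lost), and 6 to 7 when 1 library was left out. For the interaction, 0 were called, 1 in DESeq2, 2 with the block, 1 with block and total counts, and 1 without set 3 (Cxcl2). The share of all genes called is not given here for the block with total counts or for the interaction without set 3. Nor is it given for only the conditions compared or with 1 library left out, so these member counts have no background beside them. The cause of these differences in calls was not tested. When 1 library was left out, the log2 fold change for 3′SL against PBS ran from −0.49 to 3.45 for Cxcl2, −0.21 to 1.11 for Cxcl9, −0.18 to 1.74 for Cxcl10, −1.07 to 0.44 for Cxcl14, and −0.23 to 1.14 for Cxcl16. For LPS + 3′SL against LPS it ran from −0.89 to 0.21 for Cxcl9, −0.38 to 0.035 for Cxcl10, −0.92 to 0.56 for Cxcl11, and −0.33 to 0.26 for Cxcl16. For the interaction it ran from −1.85 to 0.070 for Cxcl10, −0.070 to 1.43 for Cxcl14, and −1.15 to 0.22 for Cxcl16. Leaving out a whole set turned none of these directions, except that of Cxcl16 for LPS + 3′SL against LPS. Cxcl16 for LPS + 3′SL against LPS also turned to 0.068 with total counts, 0.0046 without a filter, 0.0036 with only the conditions compared, 0.00898 without set 1, and 0.013 without set 2. No paired analysis was possible from the labels because they carry no replicate numbers, so the block rests on sets found in the data. Those sets also follow the order of deposit, 4 libraries at a time, but the labels do not name them as pairs. With 3 libraries a condition, Cxcl5 (at most 14 reads) and Cxcl11 in PBS (8 reads in all) were limited by depth.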
